A study of Mus musculus with 9 samples.

Results

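The cell division genes described here are 42 mouse genes picked by name for what their products do in the cell cycle: they start S phase, copy the DNA, drive the cell into mitosis, attach chromosomes to the spindle or split the daughter cells. Their members were found through the RefSeq accession that the array gives each probe, which named 54 of the 55681 non-control probes for them. In all, 20145 genes on the array had a symbol. The filter on dim probes asks for a signal well above background throughout 1 group or more. Of the 42 genes, 37 passed it and were tested, among 30836 features in all. The other 5 (Ccne2, Cenpf, Bub1, Ttk and Aurkb) were too dim to be tested.

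The study measured RNA of homogenised brain from adult male C57BL/6 mice on 1-colour microarrays, with 3 groups of 3 arrays and a different mouse for each. VEGF mice, aged 50, 50 and 53 days, underwent closure of the middle cerebral artery for 90 min and were given, 3 h after reperfusion, 1 µl of human recombinant VEGF-A165 (10 µg/ml in buffered saline) into the right lateral ventricle. VEGF-A is a secreted growth factor of blood vessels. MCAO mice (middle cerebral artery occlusion), aged 50, 52 and 53 days, underwent that occlusion too and were given 1 µl of phosphate-buffered saline by the same route at the same time. Sham mice, aged 50, 52 and 52 days, had sham surgery. The labels name no injection for these mice and no brain region for any sample. Brains were collected 24 h after reperfusion, 21 h after the injection, so every value is a single early time.

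A dividing cell passes from G1 into S phase when D-type cyclins with Cdk4 or Cdk6, and then cyclin E with Cdk2, release E2F transcription factors from the retinoblastoma proteins. The helicase of Mcm2 to Mcm7 then unwinds the DNA, Pcna clamps the polymerases to it, and cyclin B with Cdk1 brings on mitosis, which ends when the anaphase-promoting complex is activated by Cdc20. In the adult rodent brain most neurons are out of the cell cycle, and dividing cells are known mainly from the neurogenic zones, oligodendrocyte precursors and, after injury, microglia, blood vessels and reactive astrocytes. Several of these genes, among them the D cyclins and cyclin E, are also known to be transcribed in neurons that do not divide.

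A level below is the log2 of the processed intensity minus the 75th percentile of that array, so that differences between groups are log2 ratios. Levels of different probes are not compared with each other. The 75th percentile itself lay at 848 to 1830 intensity units on the VEGF arrays, at 923 to 2070 on the MCAO arrays and at 1420 to 1530 on the sham arrays. VEGF array 1 and MCAO array 1 stood apart from the other ischaemic arrays: they scored 141 and 130 on the first principal component of all features, which held 57.0% of the variance, where the remaining 4 ischaemic arrays scored -8.18 to 15.9 and the sham arrays -104 to -90.1. MCAO array 1 was also scanned on another day than the rest, and per the file headers the correction of its spatial trend was not applied. The 3 sham arrays shared 1 slide and the 6 ischaemic arrays a different one, so in each comparison with sham the slide and the surgery cannot be told apart. Both of these comparisons use the same 3 sham arrays.

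Mcm3, a subunit of the replicative helicase, rose in both ischaemic groups, to 3.49 times its sham level in VEGF brains and 3.56 times in MCAO brains, and was the only one of the 37 tested genes to pass the test. In VEGF minus sham that is 1 of 37, where 748 of the 30836 features (2.43%) passed, 2.07% in the higher direction. In MCAO minus sham it is again 1 of 37, where 868 features (2.81%) passed, 2.28% in the higher direction. The test was limma's moderated test with Benjamini-Hochberg adjustment over all features at 0.05. Most of the other genes averaged above sham without passing. The median difference of the 37 was 0.29 log2 in VEGF minus sham, against -0.12 over all features, and 0.45 in MCAO minus sham, against -0.04. Above 0 were 25 of 37 genes (67.6%) in VEGF minus sham, against 42.4% of all features, and 29 of 37 (78.4%) in MCAO minus sham, against 46.8%. At an unadjusted p under 0.05 there were 13 genes in each comparison, against 23.5% of all features for VEGF minus sham and 21.4% for MCAO minus sham. Groups that do not overlap were found for 18 of 37 genes (48.6%) in VEGF minus sham, against 42.1% of all features, with 13 genes higher in VEGF brains (18.2% of all features) and 5 lower (23.9% of all features). In MCAO minus sham they were found for 21 of 37 (56.8%), against 40.3% of all features, with 17 higher in MCAO brains (19.6% of all features) and 4 lower (20.7% of all features). These counts are a description of the 37 genes.

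**Figure D1:**
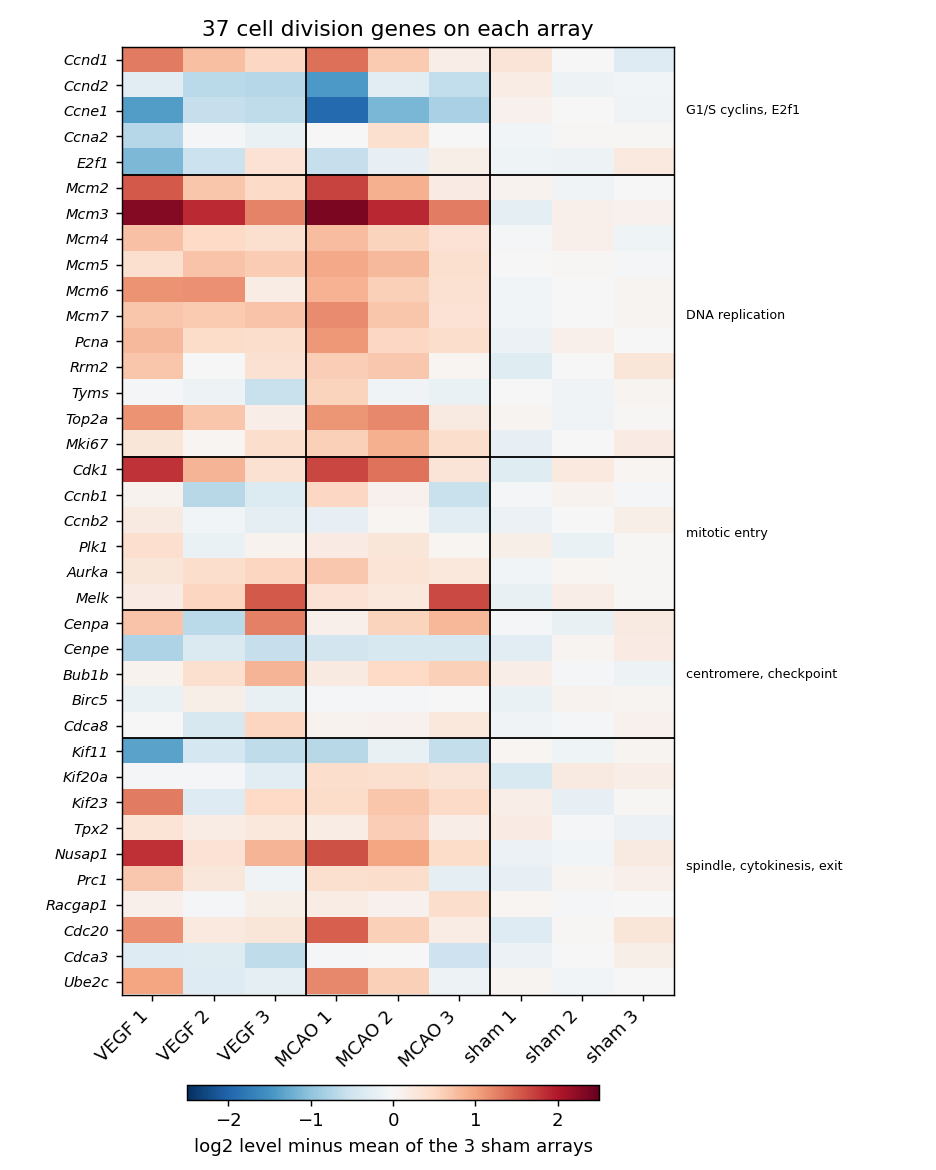
Level of each of the 37 tested cell division genes (rows, grouped by role) on each of the 9 arrays (columns, VEGF, MCAO and sham), as the log2 level minus the mean of the 3 sham arrays of that gene. The DNA replication block is red on most ischaemic arrays, with Mcm3 the deepest, while Ccne1, Ccnd2, Cenpe and Kif11 are blue there.

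The promoters of 4 of these genes are shown. Each gene is among the 6 of largest difference in at least 1 comparison with sham, and not all such genes are shown. The 4 range from several matches to the letters that cell cycle genes are known to share down to none. RefSeq's GRCm38.p6 table holds 36 promoters for 34 of the 42 genes, each 250 bases before to 50 after the start. They were searched on both strands for TTTGAA (the letters of the cell cycle homology region, CHR), for CCAAT (the letters bound by NF-Y), and for E2F letters. The E2F letters were TTCCCGC, with TTGGCGC and also TTCGCGC as variants. The letters TTTGAA were in 55.6% of the 36 promoters, against 17.9% of all 32851 promoters in the table. CCAAT was in 83.3% of them, against 37.4% of all promoters, and both together were in 55.6%, against 6.95% of all promoters. E2F letters were in 22.2%, against 8.07% of all promoters. CCAAT letters overlapped E2F letters in 5.56% of the 36 promoters, against 0.447% of all. Among the 17388 promoters of genes tested here, TTTGAA was in 13.4%, CCAAT in 37.6% and both together in 5.38%. E2F letters were in 11.9% of those and overlapped CCAAT letters in 0.65%. The split by role was uneven. E2F letters stood in 6 of 11 promoters of replication genes and in 0 of 9 of spindle, cytokinesis and exit genes, whereas TTTGAA stood in 3 of 11 and 8 of 9 of these. The 11 promoters belong to 10 genes and the 9 to 8 genes. The 6 include both promoters of Mcm7 and that of Mki67, and the 3 are those of Mcm2, Mki67 and Top2a, so the split depends on how genes were assigned. The promoter of Mcm3 lies at chr1:20820263-20820562, that of Cdk1 at chr10:69352863-69353162, that of Top2a at chr11:99024140-99024439 and that of Ccne1 at chr7:38107441-38107740, all on the minus strand and written 5′ to 3′ along the gene, with capitals marking the matches to these letters in either direction.
Mcm3: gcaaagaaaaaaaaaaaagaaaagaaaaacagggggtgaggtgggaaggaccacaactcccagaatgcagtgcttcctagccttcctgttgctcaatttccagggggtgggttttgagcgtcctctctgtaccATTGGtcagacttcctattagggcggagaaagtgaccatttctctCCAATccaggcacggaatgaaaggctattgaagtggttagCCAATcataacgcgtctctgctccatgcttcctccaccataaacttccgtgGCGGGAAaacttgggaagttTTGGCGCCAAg
Cdk1: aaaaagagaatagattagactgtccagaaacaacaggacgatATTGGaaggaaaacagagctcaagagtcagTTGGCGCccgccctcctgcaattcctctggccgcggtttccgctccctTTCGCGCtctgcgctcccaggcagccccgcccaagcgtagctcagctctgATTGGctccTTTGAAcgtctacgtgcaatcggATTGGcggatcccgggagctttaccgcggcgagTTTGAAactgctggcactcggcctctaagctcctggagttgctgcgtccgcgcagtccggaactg
Top2a: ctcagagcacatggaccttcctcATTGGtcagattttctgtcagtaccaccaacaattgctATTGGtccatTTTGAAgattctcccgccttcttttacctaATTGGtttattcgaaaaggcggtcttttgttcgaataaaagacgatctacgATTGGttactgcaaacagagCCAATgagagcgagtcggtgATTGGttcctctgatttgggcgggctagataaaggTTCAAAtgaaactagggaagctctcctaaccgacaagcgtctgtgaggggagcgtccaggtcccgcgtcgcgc
Ccne1: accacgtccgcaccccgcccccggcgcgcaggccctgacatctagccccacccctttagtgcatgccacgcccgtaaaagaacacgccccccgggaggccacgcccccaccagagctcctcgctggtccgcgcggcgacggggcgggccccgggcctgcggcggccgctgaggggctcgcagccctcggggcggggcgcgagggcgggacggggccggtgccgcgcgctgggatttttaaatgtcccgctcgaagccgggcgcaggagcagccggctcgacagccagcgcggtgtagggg
Mcm3 carries 3 CCAAT matches before its start and 3 E2F matches after it, the nearest to the start from base 20 to 26, with no TTTGAA. Cdk1 has 2 TTTGAA matches, from base -71 to -66 and from -15 to -10, together with 3 CCAAT and 2 E2F matches. Top2a has 2 TTTGAA matches and 6 CCAAT matches. Ccne1 holds none of these exact words, which says only that they are not in this window of 300 bases. Single genes differed in this: Nusap1, above sham, also held none, while Kif11 and Cdca3, both below sham on average, held TTTGAA with CCAAT letters. Whether letters and direction go together over all the genes was not tested. A match is a description of the letters and shows no binding.

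Of the 5 roles, the DNA replication genes had the highest median difference from sham. It was 0.59 log2 in VEGF minus sham and 0.68 in MCAO minus sham. This list of 11 also holds Top2a and Mki67, which are not genes of the helicase, the clamp or nucleotide supply. The counts below include both, of which Top2a lay above sham without overlap in both comparisons and Mki67 in MCAO minus sham. Of 11, 8 lay wholly above sham in VEGF brains, as did 18.2% of all features, and 9 in MCAO brains, as did 19.6%. At an unadjusted p under 0.05 there were 6 in VEGF minus sham, against 23.5% of all features, and 8 in MCAO minus sham, against 21.4%. In each comparison 1, Mcm3, passed after adjustment. Mcm3 was at 1.41, 0.98 and 0.36 on the VEGF arrays, at 1.46, 0.99 and 0.38 on the MCAO arrays, and at -1.13, -0.77 and -0.78 on the sham arrays. Every ischaemic array lay above every sham array, by more than the spread within either ischaemic group. The difference was 1.81 ± 0.34 log2 (SE of the fit, n = 3 arrays a group) in VEGF minus sham, adjusted p = 0.0347 by limma. In MCAO minus sham it was 1.83 ± 0.34, adjusted p = 0.0304 by limma. In RNA of homogenised tissue, more cells that express a gene and more RNA per cell cannot be told apart.

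The call of Mcm3 was lost in 6 of the 9 fits that left out 1 array, in each comparison, with the difference between 1.56 and 2.08 in VEGF minus sham and between 1.58 and 2.11 in MCAO minus sham. The highest adjusted p by limma was 0.166 in VEGF minus sham and 0.149 in MCAO minus sham, both without sham array 1. Without VEGF array 1 the VEGF value was 1.56 (adjusted p = 0.0813 by limma), and without MCAO array 1 the MCAO value was 1.58 (adjusted p = 0.0512 by limma).

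The other subunits of the same helicase also averaged above sham and did not pass. Mcm2 was at 0.16, -0.69 and -0.89 on the VEGF arrays, at 0.31, -0.48 and -1.17 on the MCAO arrays, and at -1.28, -1.46 and -1.36 on the sham arrays. No ischaemic array overlapped sham, but the spread was wide, with array 1 highest in both ischaemic groups. The difference was 0.90 ± 0.40 in VEGF minus sham (adjusted p = 0.218 by limma) and 0.93 ± 0.40 in MCAO minus sham (adjusted p = 0.228 by limma). Mcm4, Mcm5, Mcm6 and Mcm7 differed from sham by 0.54, 0.59, 0.82 and 0.68 in VEGF brains and by 0.56, 0.72, 0.61 and 0.75 in MCAO brains, again with no overlap, and with adjusted p from 0.0957 to 0.252 by limma. All 6 helicase subunits stood above sham on every ischaemic array. Mcm7 had the smallest SD of these among the VEGF arrays (0.034).

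Pcna, the sliding clamp, averaged 3.74 ± 0.22 in VEGF brains, 3.85 ± 0.35 in MCAO brains and 3.17 ± 0.14 in sham brains (SD, n = 3 each), with no overlap with sham in either group, adjusted p = 0.188 in VEGF minus sham and 0.149 in MCAO minus sham by limma. Top2a, the topoisomerase that untangles copied chromosomes, was at -3.85, -4.27 and -4.79 on the VEGF arrays, at -3.86, -3.77 and -4.74 on the MCAO arrays, and at -4.90, -5.06 and -4.95 on the sham arrays. Array 3 of each ischaemic group was close to sham, while the other 4 ischaemic arrays stood well above it. The Top2a difference was 0.66 ± 0.32 in VEGF minus sham (adjusted p = 0.247 by limma) and 0.84 ± 0.32 in MCAO minus sham (adjusted p = 0.190 by limma). Mki67, the usual histological marker of cycling cells, was at -1.83, -2.08 and -1.69 on the VEGF arrays, at -1.52, -1.23 and -1.68 on the MCAO arrays, and at -2.32, -2.14 and -1.91 on the sham arrays. Its MCAO arrays were all above sham (0.64 ± 0.21, adjusted p = 0.141 by limma), and its VEGF arrays overlapped sham (0.26 ± 0.21, adjusted p = 0.447 by limma). A second Mki67 probe gave 0.25 in VEGF minus sham and 0.67 in MCAO minus sham.

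In this group only the 2 genes of nucleotide supply overlapped sham in both comparisons, while Mki67 did so in VEGF minus sham. Tyms, thymidylate synthase, was at -2.49, -2.58 and -3.01 on the VEGF arrays, at -1.89, -2.54 and -2.62 on the MCAO arrays, and at -2.44, -2.53 and -2.37 on the sham arrays. MCAO array 1 alone lay clearly above sham, and the difference was -0.24 log2 in VEGF minus sham and 0.10 in MCAO minus sham. Rrm2, the inducible subunit of ribonucleotide reductase, differed from sham by 0.36 in VEGF brains and 0.45 in MCAO brains, and overlapped sham in both.

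**Figure D2:**
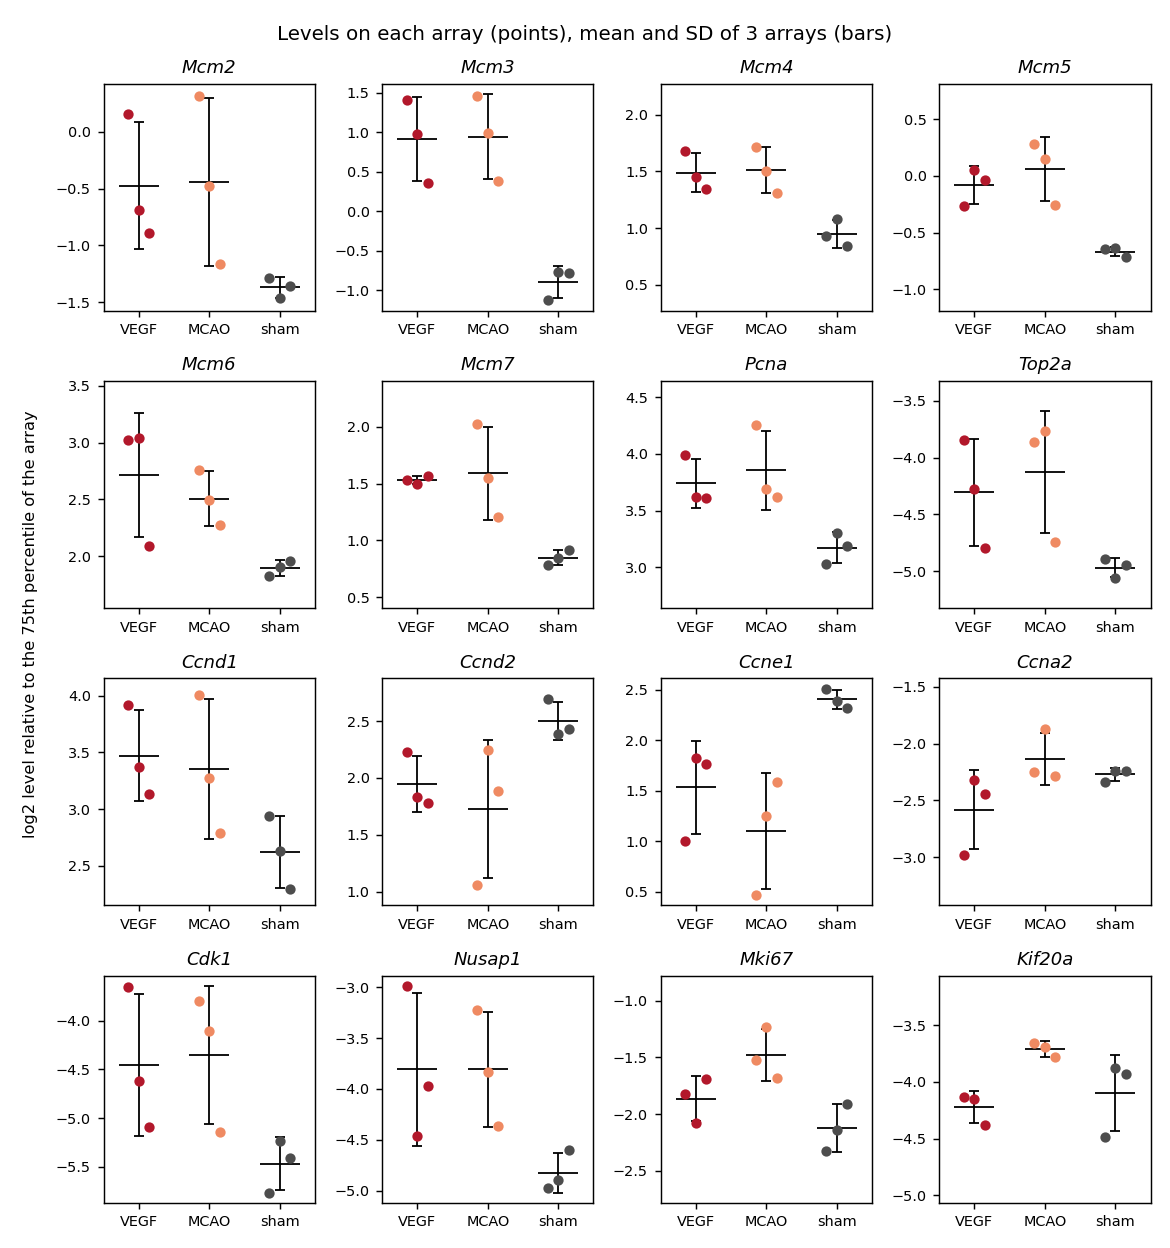
Levels of 16 cell division genes (log2 level relative to the 75th percentile of the array, each panel spanning at least 2 log2 units) in the VEGF, MCAO and sham groups, with a point for each array, a long bar for the mean and short bars for the SD of 3 arrays. Mcm2 to Mcm7 and Pcna lie above sham on all 6 ischaemic arrays, Ccne1 and Ccnd2 below it, and for Kif20a, Ccna2 and Mki67 all VEGF arrays are below the MCAO arrays.

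The regulators that open S phase did not share one direction. Their median difference was -0.43 log2 in VEGF minus sham and -0.21 in MCAO minus sham over 5 tested genes, none of which passed. Ccnd1, the cyclin D1 of early G1, was at 3.91, 3.37 and 3.14 on the VEGF arrays, at 4.01, 3.27 and 2.79 on the MCAO arrays, and at 2.94, 2.63 and 2.30 on the sham arrays. The VEGF arrays were all above sham, and MCAO array 3 lay within the sham range. The difference was 0.85 ± 0.35 (adjusted p = 0.197 by limma) in VEGF minus sham and 0.73 ± 0.35 (adjusted p = 0.266 by limma) in MCAO minus sham. Ccne1, cyclin E1, averaged below sham. It was at 1.00, 1.83 and 1.76 on the VEGF arrays, at 0.46, 1.25 and 1.59 on the MCAO arrays, and at 2.51, 2.39 and 2.32 on the sham arrays. All 6 ischaemic arrays lay below all 3 sham arrays, and array 1 was the lowest in both ischaemic groups. The Ccne1 difference was -0.87 ± 0.33 in VEGF minus sham (adjusted p = 0.172 by limma) and -1.30 ± 0.33 in MCAO minus sham (adjusted p = 0.0796 by limma). A second, dimmer probe of the gene gave -1.41 in VEGF minus sham and -1.61 in MCAO minus sham.

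Ccnd2, cyclin D2, likewise averaged below sham. It was at 2.23, 1.83 and 1.78 on the VEGF arrays, at 1.06, 2.24 and 1.89 on the MCAO arrays, and at 2.70, 2.38 and 2.43 on the sham arrays. The groups did not overlap, and the difference was -0.56 ± 0.31 in VEGF minus sham and -0.77 ± 0.31 in MCAO minus sham. E2f1, the transcription factor that turns on replication genes, overlapped sham in both comparisons (-0.43 in VEGF minus sham and -0.21 in MCAO minus sham). Ccna2, cyclin A2, was at -2.98, -2.32 and -2.45 on the VEGF arrays, at -2.25, -1.87 and -2.29 on the MCAO arrays, and at -2.34, -2.24 and -2.24 on the sham arrays. It overlapped sham in both comparisons, with a difference of -0.31 in VEGF minus sham and 0.13 in MCAO minus sham.

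Among the genes of mitotic entry, the kinase Cdk1 was furthest from sham. It was at -3.66, -4.61 and -5.09 on the VEGF arrays, at -3.80, -4.10 and -5.15 on the MCAO arrays, and at -5.76, -5.23 and -5.41 on the sham arrays. Array 3 of each ischaemic group was just above the highest sham array, and array 1 was far above it. The difference was 1.02 ± 0.44 in VEGF minus sham (adjusted p = 0.212 by limma) and 1.12 ± 0.44 in MCAO minus sham (adjusted p = 0.201 by limma). A second Cdk1 probe gave 0.74 in VEGF minus sham and 0.87 in MCAO minus sham, and the third was well above background on no array. Its partner cyclins overlapped sham: Ccnb1 differed by -0.32 in VEGF brains and 0.02 in MCAO brains, and Ccnb2 by -0.03 in VEGF brains and -0.14 in MCAO brains. The other 2 probes of Ccnb1 gave 0.07 and -0.44 in VEGF minus sham and 0.22 and 0.16 in MCAO minus sham. Plk1, the kinase of mitotic entry and exit, gave 0.11 in VEGF minus sham and 0.19 in MCAO minus sham. Aurka, the kinase of spindle poles, gave 0.43 in VEGF minus sham and 0.42 in MCAO minus sham with no overlap with sham. Melk, a kinase of cycling cells, differed by 0.76 in both, and its high values were on array 3 of each ischaemic group (-2.85 on the VEGF and -2.72 on the MCAO array, against -4.56 to -4.21 on the sham arrays).

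For the centromere and the spindle checkpoint, 5 of 9 genes could be tested and none passed, with median differences of 0.04 in VEGF minus sham and 0.16 in MCAO minus sham. Cenpe, the kinesin that moves chromosomes to the metaphase plate, was below all sham arrays on all 6 ischaemic arrays, by -0.57 ± 0.20 in VEGF brains (adjusted p = 0.149 by limma) and -0.42 ± 0.20 in MCAO brains (adjusted p = 0.254 by limma). Bub1b, which codes for the checkpoint protein BubR1, gave 0.45 in each comparison. Birc5, or survivin, and Cdca8, or borealin, are both of the chromosomal passenger complex, and their brightest probes lay between -0.07 and 0.16. The other 2 Birc5 probes gave -0.29 each in VEGF minus sham and -0.20 and -0.44 in MCAO minus sham. The histone Cenpa lay between 0.43 and 0.50 with a wide spread in VEGF brains (SD 0.99). The complex's kinase Aurkb was well above background on 2 arrays, Bub1 on 5, Ccne2 on 1, and Cenpf and Ttk on none.

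Of the spindle, cytokinesis and exit genes, none of 10 passed, and the median differences were 0.20 in VEGF minus sham and 0.35 in MCAO minus sham. Nusap1, which bundles spindle microtubules, was at -2.99, -4.46 and -3.97 on the VEGF arrays, at -3.23, -3.84 and -4.36 on the MCAO arrays, and at -4.97, -4.89 and -4.60 on the sham arrays. All ischaemic arrays were above sham, again with array 1 highest in both groups. The difference was 1.01 ± 0.41 in each comparison (adjusted p = 0.190 in VEGF minus sham and 0.206 in MCAO minus sham, by limma). Kif11, the motor that separates spindle poles, averaged below sham, at -0.80 ± 0.27 in VEGF minus sham (adjusted p = 0.140 by limma) and -0.49 ± 0.27 in MCAO minus sham (adjusted p = 0.314 by limma). Kif23, Prc1 and Racgap1, which build the midzone of the dividing cell, gave 0.50, 0.29 and 0.07 in VEGF minus sham and 0.55, 0.20 and 0.24 in MCAO minus sham. Cdc20 and Ube2c, an activator and the ubiquitin-conjugating enzyme of the anaphase-promoting complex, gave 0.57 and 0.13 in VEGF minus sham and 0.76 and 0.56 in MCAO minus sham. Cdca3 gave -0.42 in VEGF minus sham and -0.18 in MCAO minus sham. The 2 probes of Tpx2 disagreed: the brighter gave 0.26 in VEGF minus sham and 0.32 in MCAO minus sham, and the dimmer gave -0.77 in VEGF minus sham and 0.05 in MCAO minus sham.

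**Figure D3:**
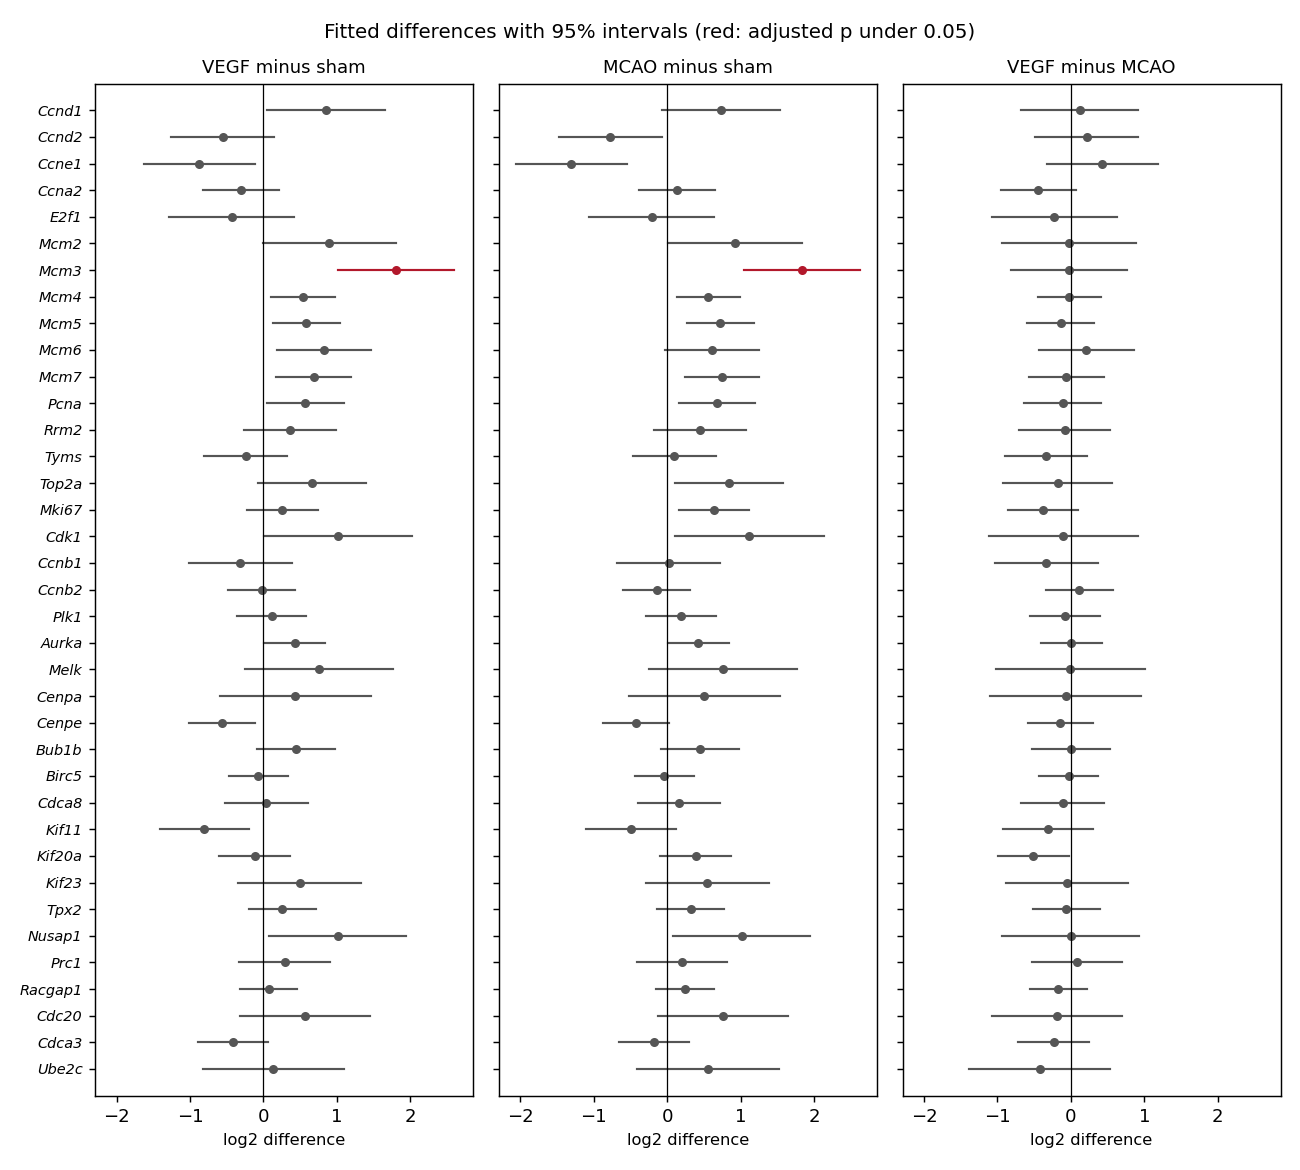
Fitted log2 difference (x axis) with its 95% interval for the 37 tested cell division genes (y axis, in order of role) in VEGF minus sham, MCAO minus sham and VEGF minus MCAO. Mcm3 alone is red, for an adjusted p under 0.05, with 1.81 and 1.83 in the comparisons with sham, and no gene is red in VEGF minus MCAO.

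Between VEGF and vehicle after the same occlusion, none of the 37 genes passed limma's test, where 2 of all 30836 features did (0.00649%). At an unadjusted p under 0.05 there was 1 gene, against 2.78% of all features, and with arrays weighted by their quality again none passed. Groups did not overlap for 3 genes (8.11%), against 5.8% of all features. All 3 were lower in VEGF brains, against 3.48% of all features lower and 2.33% higher. The median difference was -0.08 log2 over the 37 genes and -0.02 over all features. Below 0 were 28 of the 37, as were 16477 of the 30836 features. The sign of the genes' median follows the scaling: with arrays centred on their median rather than the 75th percentile it was 0.08, where the median of all features was 0.14. The median 95% interval of a gene reached 0.61 log2 to either side and the widest 1.03, so differences within those limits could not be told from 0.

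The 3 genes without overlap were Kif20a, Ccna2 and Mki67. Kif20a, a kinesin of cytokinesis, was at -4.13, -4.16 and -4.38 on the VEGF arrays, at -3.66, -3.69 and -3.79 on the MCAO arrays, and at -4.49, -3.88 and -3.93 on the sham arrays. The VEGF arrays were all below the MCAO arrays and within the sham range. The difference was -0.51 ± 0.21 in VEGF minus MCAO (unadjusted p = 0.0397, adjusted p = 1.00 by limma). Ccna2 differed by -0.44 ± 0.23 and Mki67 by -0.38 ± 0.21 (adjusted p = 1.00 each by limma), and the second Mki67 probe gave -0.42. The next largest were Ccne1 at 0.43 ± 0.33, Ube2c at -0.42 ± 0.42 and Tyms at -0.34 ± 0.25, each with overlapping groups. Ube2c was at -1.80, -3.11 and -3.03 on the VEGF arrays, at -1.58, -2.17 and -2.91 on the MCAO arrays, and at -2.72, -2.85 and -2.77 on the sham arrays, so its spread among the ischaemic arrays of either treatment exceeded the difference between them. Mcm3 differed by -0.03 ± 0.34, with a 95% interval of -0.82 to 0.76.

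The genes outside the list that act on the same machinery give the setting. The following shares of all features stand beside the counts in these lists and in the marker lists further below. As higher, 2.07% passed in VEGF minus sham and 2.28% in MCAO minus sham. In either direction, 2.43% passed in VEGF minus sham and 2.81% in MCAO minus sham. Of the features that passed, 85.3% were higher in VEGF minus sham and 81% in MCAO minus sham, and the rest were lower. Of 7 Cdk inhibitors, 1 rose in both comparisons with sham: Cdkn1a, the p53 target p21 that blocks cyclin-Cdk complexes and binds Pcna. It was at 4.14, 3.43 and 3.58 on the VEGF arrays, at 5.51, 3.10 and 2.68 on the MCAO arrays, and at 0.11, -0.35 and -0.09 on the sham arrays. No ischaemic array came near sham, and MCAO array 1 was the highest. The difference was 3.83 ± 0.65 in VEGF minus sham (adjusted p = 0.0211 by limma) and 3.87 ± 0.65 in MCAO minus sham (adjusted p = 0.0195 by limma).

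Of 23 G1 kinases, pocket proteins and cell cycle transcription factors, 2 rose and 1 fell in VEGF minus sham, and 1 rose in MCAO minus sham. Cdk6, a partner of the D cyclins, rose at least 5.96-fold in VEGF brains (adjusted p = 0.0320 by limma). In MCAO brains it rose at least 4.72-fold (adjusted p = 0.0411 by limma). Its probe passed the filter on dim probes only through the ischaemic groups, where it is high, so its calls, counted above, are only a description. The MCAO call of Cdk6 was lost in 11 of 22 alternatives and the VEGF call in 6, each of them including the 3 fits that left out 1 sham array. With normexp background correction, which adds an offset, its difference was 1.11 log2 in VEGF minus sham and 0.83 in MCAO minus sham, below these bounds. The bounds hold for the processed signal, since none of its sham arrays was well above background: they set the mean of the ischaemic arrays against the higher of the sham signal and the dimmest detectable signal of each sham array. The phosphatase gene Cdc25a rose by 1.19 ± 0.19 in VEGF minus sham (adjusted p = 0.0180 by limma), and Cdc25c fell by 2.04 ± 0.36, with 1 of 3 VEGF arrays well above background. With normexp the Cdc25c difference was -0.57 and did not pass, and over 22 alternatives its call was lost in 5. In MCAO minus sham Cdc25a differed by 0.73 ± 0.19 and Cdc25c by -1.60 ± 0.36 without passing. In VEGF minus MCAO Cdc25a differed by 0.45 ± 0.19 (adjusted p = 1.00 by limma, without overlap) and Cdc25c by -0.43 ± 0.36 (adjusted p = 1.00 by limma). Of 26 genes of origin licensing and the replication fork, 2 rose in each comparison with sham. Cdt1, which loads the Mcm helicase onto origins, was at 1.74, 0.65 and 1.18 on the VEGF arrays, at 1.91, 0.77 and 0.55 on the MCAO arrays, and at -1.41, -1.02 and -1.08 on the sham arrays, and rose by 2.36 ± 0.40 in VEGF minus sham and 2.25 ± 0.40 in MCAO minus sham. Gins1, part of the active helicase, rose by 1.36 ± 0.20 in VEGF minus sham and 1.34 ± 0.20 in MCAO minus sham. The median of these 26 genes was 0.36 in VEGF minus sham, with 21 above 0, against 42.4% of all features. In MCAO minus sham it was 0.49, with 23 above 0, against 46.8% of all features. Both counts include Orc1, which was well above background on none of the sham arrays. It passed the filter on dim probes only through the VEGF group.

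Of 46 other mitotic genes, 40 were tested, and 4 rose in VEGF minus sham and 3 in MCAO minus sham, with median differences of 0.26 in VEGF minus sham and 0.31 in MCAO minus sham. Gtse1, a microtubule-bound regulator of p53 in G2, was at -2.98, -2.11 and -1.68 on the VEGF arrays, at -2.18, -2.49 and -3.50 on the MCAO arrays, and at -5.34, -5.43 and -5.08 on the sham arrays. It rose by 3.03 ± 0.42 in VEGF minus sham (adjusted p = 0.0103 by limma) and 2.56 ± 0.42 in MCAO minus sham (adjusted p = 0.0177 by limma). Ckap2, a spindle protein, rose by 1.49 ± 0.20 in VEGF minus sham and 1.44 ± 0.20 in MCAO minus sham. The microtubule depolymerase Kif2c, well above background on none of the sham arrays, rose at least 2.72-fold in VEGF brains and at least 2.95-fold in MCAO brains. Like Cdk6, it passed the filter on dim probes only through the ischaemic groups, so its calls, counted above, are only a description. The Kif2c call was lost in 11 of 22 alternatives in VEGF minus sham and in 8 in MCAO minus sham, and with normexp the difference was 0.61 log2 in VEGF minus sham and 0.50 in MCAO minus sham, below these bounds. Cks2, a small Cdk-binding protein, rose by 1.07 ± 0.18 in VEGF minus sham and differed by 0.83 ± 0.18 in MCAO minus sham without passing. Each call named here for Cdkn1a, Cdc25a, Cdt1, Gins1, Gtse1, Ckap2 and Cks2 was lost in 2 to 6 of 23 alternatives, in every case without sham array 1. In VEGF minus MCAO none of the genes in these lists passed.

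**Figure D4:**
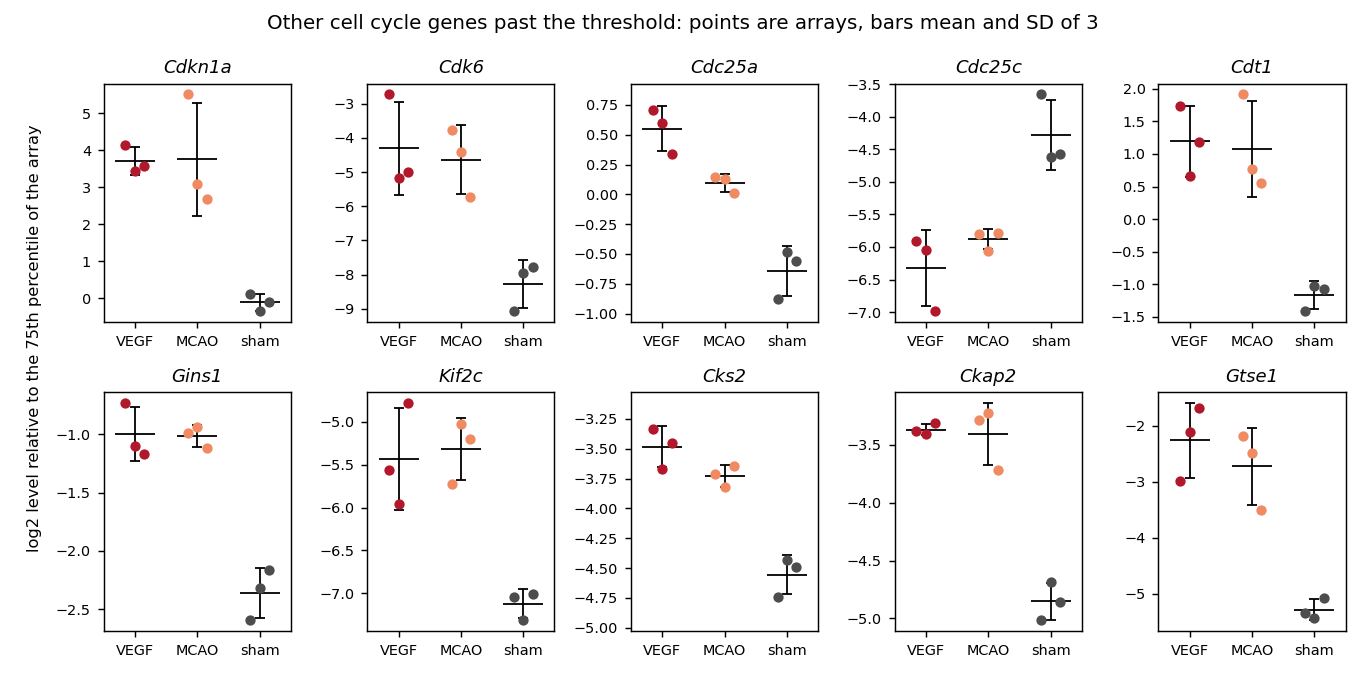
Levels (log2 relative to the 75th percentile of the array) of the 10 cell cycle genes outside the list of 42 that passed the test in at least 1 comparison, with a point per array, a long bar for the mean and short bars for the SD of 3 arrays in the VEGF, MCAO and sham groups. All but Cdc25c are higher in VEGF than in sham; the sham points of Cdk6 and Kif2c are not well above background.

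Markers of other cell types differed from sham too. A marker could pass the filter on dim probes through the ischaemic groups alone. The counts below do not set such markers apart, so their calls are only a description. Of 8 tested neutrophil markers (of 9 listed), 6 rose in each comparison with sham, with S100a8, a calcium-binding protein of neutrophils, at 6.02 ± 0.97 log2 in VEGF minus sham. Their median marker stood 4.44 to 7.03 log2 above the sham mean on the VEGF arrays and 4.22 to 7.05 on the MCAO arrays, and the log2 of their summed level, which the brightest probes set, was 6.67 to 7.82 on the VEGF arrays, 6.76 to 7.96 on the MCAO arrays and 6.36 to 6.71 on the sham arrays. Of 8 tested monocyte and macrophage markers (of 10 listed), 4 (Ccr2, Cd14, Msr1 and Lyz2) rose in each. Their median marker stood 2.04 to 3.57 log2 above the sham mean on the VEGF arrays and 2.26 to 3.26 on the MCAO arrays, with summed levels of 8.74 to 9.79 on the VEGF arrays, 8.74 to 9.15 on the MCAO arrays and 8.74 to 8.83 on the sham arrays. For endothelial markers, 0 of 12 rose and 1, Slco1a4, fell in each, and the summed level was 6.07 to 8.08 on the VEGF arrays, 6.25 to 7.63 on the MCAO arrays and 5.37 to 5.52 on the sham arrays. For microglia, 0 of 8 rose and 1, P2ry12, fell in each, and the summed level was 7.27 to 8.48 on the VEGF arrays, 7.42 to 7.69 on the MCAO arrays and 6.77 to 6.80 on the sham arrays. None of 10 neural progenitor markers passed. Their median difference was -0.47 in VEGF minus sham and -0.64 in MCAO minus sham. In each comparison 3 of 10 were above 0, against 42.4% of all features in VEGF minus sham and 46.8% in MCAO minus sham. Their summed level, which the brightest probes set, was 3.43 to 5.39 on the VEGF arrays, 3.72 to 5.64 on the MCAO arrays and 3.77 to 3.92 on the sham arrays. None of 7 oligodendrocyte precursor markers passed, with summed levels of 4.80 to 5.18 on the VEGF arrays, 4.39 to 5.60 on the MCAO arrays and 5.12 to 5.47 on the sham arrays. All 16 neuron markers were below 0 in both comparisons without passing, with summed levels of 7.41 to 9.26 on the VEGF arrays, 7.36 to 9.11 on the MCAO arrays and 9.45 to 9.50 on the sham arrays. In lymphocyte markers Cd3d and Gzmb rose in both comparisons, of 7 tested, with summed levels of 3.02 to 3.30 on the VEGF arrays, 2.91 to 3.13 on the MCAO arrays and 2.78 to 3.22 on the sham arrays. Chil3 rose in both among 8 immature neutrophil markers, with summed levels of 3.41 to 4.09 on the VEGF arrays, 2.23 to 4.43 on the MCAO arrays and 1.38 to 1.61 on the sham arrays. Of 8 astrocyte markers Gfap rose in VEGF minus sham and none passed in MCAO minus sham, with summed levels of 8.19 to 9.02 on the VEGF arrays, 8.17 to 8.22 on the MCAO arrays and 8.02 to 8.10 on the sham arrays. No marker of mature oligodendrocytes, pericytes, fibroblasts, red blood cells or choroid plexus passed. The median choroid plexus and ependyma marker stood at -3.10, 1.09 and -4.24 on the VEGF arrays, at 2.11, -0.72 and -0.44 on the MCAO arrays and at 0.23, 0.34 and -0.50 on the sham arrays. The median difference of the mature oligodendrocyte markers was 0.61 in VEGF minus sham and 1.18 in MCAO minus sham, and that of the red blood cell markers 0.95 in VEGF minus sham and 1.16 in MCAO minus sham. The part of any of these cells in the cell division genes was not tested.

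The arrays that stood apart were also the extremes for cell types. The median neuron marker stood at -2.43 log2 relative to the sham mean on both VEGF array 1 and MCAO array 1, where the remaining 4 ischaemic arrays were at -0.74 to -0.30. The median endothelial marker stood at 2.56 on VEGF array 1 and 1.90 on MCAO array 1, where the remaining 4 were at 0.30 to 0.65. VEGF array 1 held the highest value of its group for 20 of the 37 cell division genes and MCAO array 1 for 16, while MCAO array 3 held the lowest of its group for 25. The median SD of a gene was 0.38 in VEGF brains, 0.34 in MCAO brains and 0.14 in sham brains.

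Without both VEGF array 1 and MCAO array 1, more features passed, 6175 (20%) in VEGF minus sham and 7028 (22.8%) in MCAO minus sham. Of the 37 genes, 6 then passed in VEGF minus sham. Mcm3 (1.56 ± 0.27), Mcm7 (0.68 ± 0.14), Mcm5 (0.68 ± 0.15) and Aurka (0.49 ± 0.12) were higher, and Ccnd2 (-0.70 ± 0.17) and Ccne1 (-0.61 ± 0.15) lower. In MCAO minus sham 5 passed, with Mcm3 (1.58 ± 0.27), Mcm5 (0.61 ± 0.15), Mcm7 (0.53 ± 0.14) and Pcna (0.48 ± 0.13) higher and Ccne1 (-0.99 ± 0.15) lower. The differences of Cdk1 and Nusap1, whose highest values were on those arrays, were smaller, at 0.62 and 0.61 in VEGF minus sham and 0.84 and 0.72 in MCAO minus sham, with adjusted p from 0.0691 to 0.238 by limma. The median difference of the 37 genes was 0.20 in VEGF minus sham and 0.36 in MCAO minus sham in these fits.

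**Figure D5:**
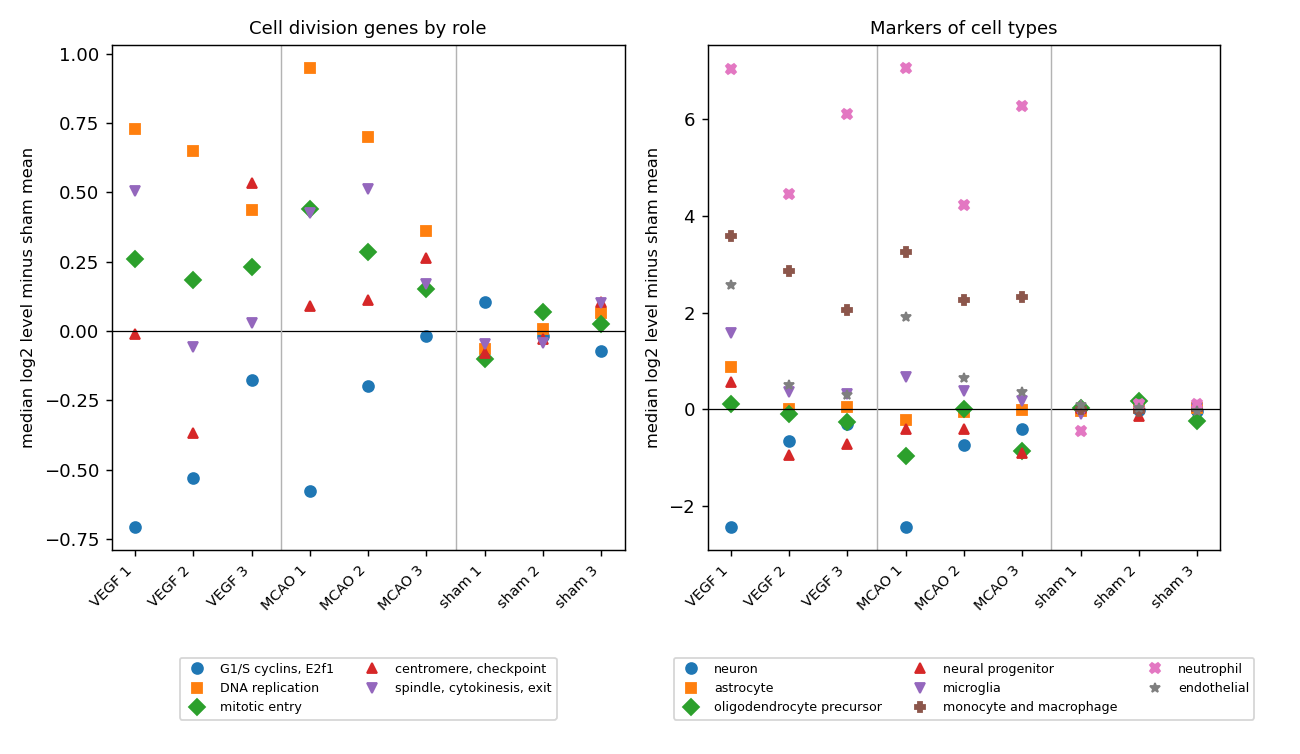
Median over the genes of a list of the log2 level minus that gene's sham mean, on each array (x axis), for the cell division genes by role (left) and for cell type markers (right). The DNA replication genes lie at 0.36 to 0.95 on the ischaemic arrays, and the neuron markers are lowest on VEGF array 1 and MCAO array 1, at -2.43.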

How the data were processed

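Agilent 1-colour arrays of 9 mouse brains were used. The deposited processed intensity came from Agilent's Feature Extraction (10.7.1.1), with background subtracted and a spatial trend corrected, per the file headers. The trend correction is deposited as a ratio, and for MCAO array 1 it was listed but not applied. A value table was deposited too, read here as log2 values because its columns follow the log2 processed intensity at 0.998 to 1.00. Its normalization is not given in the sources used here.

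From the intensity, log2 minus the 75th percentile of each array over non-control probes was computed, with 43920 of 55681 probes kept. Symbols came from RefSeq (GRCm38.p6), matched by unversioned accession. The brightest probe stood for a gene. limma 3.58.1 in R 4.3.3 fitted all 9 arrays without covariates (8.48 degrees of freedom, median standard error 0.31 log2), with two-sided moderated tests and Benjamini-Hochberg adjustment over 30836 features. The number of arrays limits the precision. The fit was tested on simulated data. A ± gives the SE of a fitted difference or the SD of a level.

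Members and lists were chosen with earlier results of these data known. Values on every array are given for members past the threshold and for the 6 members of largest absolute difference in each comparison. Values on every array of Ccnd2 and single values of other members were added after they were seen. From the other cell cycle lists, genes past the threshold are named. There were 23 alternatives, 9 of which left out 1 array. The labels say that different mice were used for each of 3 experiments. Whether a number marks a shared experiment is not stated. Deviations from the group means of same-numbered VEGF and MCAO arrays correlated at 0.59, 0.22 and 0.56, each over 0.1. VEGF array 3 with MCAO array 2 (0.39) and VEGF array 2 with MCAO array 3 (0.23) also correlated. Deviations within a group of 3 cancel out, and array 1 stood apart in both groups, which alone can make the other arrays correlate. These values therefore do not settle whether the numbers pair those arrays, and the main fit did not pair them. Same-numbered arrays correlated at -0.03, 0.14 and 0.11 for VEGF with sham and at 0.03, -0.11 and 0.15 for MCAO with sham.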

Additional observations from a re-analysis of the deposited data

Results flagged for a closer look

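Of the 5 cell division genes too dim to be tested, 3 were well above background on single ischaemic arrays at a level above every sham array. Ccne2, cyclin E2, was well above background on VEGF array 3 alone, at a level of -6.33 (intensity 16.4), where the highest sham array had an intensity of 8.3. Aurkb, the kinase of the chromosomal passenger complex, was at -5.64 (intensity 35.4) on MCAO array 2 and at -0.46 (intensity 1130) on VEGF array 2, where the highest sham array had an intensity of 2.73. The Aurkb spot on VEGF array 2 was marked as an outlier by the scanner software, and the same probe read 2.87 and 2.68 on the other 2 VEGF arrays. Bub1, a checkpoint kinase, was at -5.88 (intensity 30.1) on MCAO array 2, where the highest sham array was at -6.59 (intensity 14.0), and 2 of the 3 sham arrays also passed the background limit for it. The cause of these single high values was not tested.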

How the results depend on the processing

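Alternatives were followed for 35 pairs of a gene and a comparison. These were the 6 members of largest absolute difference in each comparison and the other cell cycle genes past the threshold. No alternative turned the direction of such a pair. Of 800 alternative values, 692 kept their side of the threshold, 97 lost it and 11 gained it. Smaller differences outside these pairs could turn. Without both VEGF array 1 and MCAO array 1, Ube2c was at -0.29 in VEGF minus sham and Tyms at -0.13 in MCAO minus sham. The call of Mcm3 held in all alternatives that kept every array and without both VEGF array 1 and MCAO array 1. The counts of calls moved more. Array weights (limma's gene-by-gene method, used because the default estimate did not converge) called 12 of 37 genes and 7764 features in VEGF minus sham, 18 and 12786 in MCAO minus sham, and 27 features in VEGF minus MCAO, with a median of 0.040 for the genes in VEGF minus sham. Without both arrays that stood apart, 6 genes and 6175 features passed in VEGF minus sham and 5 and 7028 in MCAO minus sham. Age as a covariate called 2 genes, Ccne1 and Mcm3, and 1594 features in MCAO minus sham. Centring on the median called 1588 features in VEGF minus sham. Normexp background correction called 438 in VEGF minus sham, 556 in MCAO minus sham and 0 in VEGF minus MCAO (280 at an unadjusted p under 0.05). In VEGF minus MCAO, quantile normalization called 4, recomputed signals without surrogates 0 (660 unadjusted), probes well above background on all 9 arrays 0 (580 unadjusted), and a fit of only the 2 groups compared, which lie on 1 slide, 1. That kind of fit called 1788 in MCAO minus sham.

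Leaving out 1 array called 0 to 2 genes and 156 to 3270 features in VEGF minus sham, with a median of 0.20 to 0.37 for the genes. It called 0 to 2 genes and 190 to 2583 features in MCAO minus sham (median 0.36 to 0.47), and 0 genes and 1 to 3 features in VEGF minus MCAO (median -0.20 to -0.02). Against sham, the lowest feature counts came without sham array 1, and the highest without MCAO array 1 in VEGF minus sham and without VEGF array 1 in MCAO minus sham. With the replicate number as a block, 1, 1 and 0 of the 37 genes passed in VEGF minus sham, MCAO minus sham and VEGF minus MCAO, and 946, 1229 and 2 features. The block changed no call of a cell division gene.

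With 3 arrays a group, the median 95% interval of a gene spanned 0.61 log2 to either side. The 5 dimmest genes could not be tested, slide and surgery cannot be told apart, and RNA of homogenised tissue does not say which cells divide.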
